A study of Homo sapiens with 15 samples.

Results

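The 145 genes described here had a log2 ratio of treated over control signal that was shifted the same way under 3 treatments aimed at the corepressor CtBP2 in MDA-MB-231 cells: stable silencing (shCtBP2), the inhibitor HIPP and the inhibitor P4. The probes of a gene were averaged on each array, and the log2 ratio (on which a value of 1 is a ratio of 2) was averaged over the 5 arrays of a treatment. A gene was taken when this mean was at least 0.8, or at most -0.8, in all 3 treatments, and when at least 1 channel was well above background on 3 or more arrays of each treatment. Of 30982 gene names on the array, 21068 passed the detection filter, 76 of these met the rule on the higher side and 69 on the lower side. A further 8 genes met the rule and are not among the members (ANKRD1, FST, EDG2, TSPAN8, FBP1, CTH, DDIT4 and ALDH1L2). Since the ratios chose the genes, the ratios are given with mean, SD and n as a description, without a test against 0.

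CtBP2 is a transcriptional corepressor that dimerizes when it binds NADH and brings chromatin-modifying enzymes to DNA-bound repressors. Loss of such a corepressor can raise its direct targets, and genes further downstream can move either way. MDA-MB-231 is a triple-negative breast cancer line with mesenchymal features, which secretes and responds to TGF-beta family ligands, semaphorins and matrix proteins.

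Each treatment was measured on 5 biological replicates, 15 two-color arrays in all, with RNA collected at 24 h. In shCtBP2 cells an shRNA against CtBP2 was stably transfected and selected with puromycin, and the sources do not call the cells 1 clone. HIPP is sodium 2-hydroxyimino-3-phenylpropanoate, an oxime, and P4 is sodium 2-hydrazone-3-phenylpropanoate, a hydrazone of the same acid. The study used the inhibitors at different concentrations, so their values stand side by side and were not tested against each other. Treated RNA carried Cy5 and control RNA Cy3 on all arrays, without a dye swap, so a dye effect of a gene cannot be told apart from a treatment effect that all 3 share. The labels name untreated MDA-MB-231 cells as the control of every array, whereas the paper's results set shCtBP2 cells against scrambled control cells. If arrays shared control RNA, a deviation of that RNA would also enter all 3 ratios, and this was not tested.

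The labels were checked on CTBP2 itself, whose log2 ratio lay between -0.59 and -0.29 on the 5 shCtBP2 arrays, between 0.13 and 1.05 with HIPP and between -0.22 and 0.61 with P4. This is a weaker loss than the paper reported for CtBP2 mRNA by real-time PCR against scrambled cells. With P4 the CTBP2 probes differed in sign, with means of 0.53 and -0.19. All 9 markers of the mesenchymal state were detected on all 15 arrays, VIM, CD44, AXL, CAV1 and LGALS1 at percentiles 93.6 to 99.9 of control signal among the detected genes and SPARC, MSN, FN1 and ZEB1 lower, at 82.4, 70.3, 48.4 and 28.3, while CDH1 and PGR were well above background on 0 arrays. Of the other luminal markers, ESR1 was well above background on 12 arrays in the treated and 11 in the control channel. ERBB2 and GATA3 were so on all 15, at percentiles 41.0 and 29.7. The epithelial markers KRT19, KRT18, EPCAM, KRT8 and FOXA1 were detected on all 15 arrays, at percentiles 96.9, 88.2, 70.5, 63.0 and 62.5. Mesenchymal and epithelial markers thus overlapped in level, and no member belongs to the marker lists. The share of gene spots well above background was 64.9 to 81.0% in the control channel and 65.2 to 77.5% in the treated channel. P4 replicates 1 and 3 correlated least within a treatment, at 0.171 across genes. Without replicate 1, 71 higher and 65 lower genes met the rule, 65 and 61 of them members, and without replicate 3, 92 and 72, 76 and 67 of them members.

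Few genes were past 0.8 with the knockdown, and many were with HIPP. At least 0.8 was reached by 1.89% of detected genes in shCtBP2 cells, 10.9% under HIPP and 4.38% under P4, and at most -0.8 by 1.42%, 12.7% and 5.08%. The higher side of the rule, with the genes left out by name counted, held 0.375% of detected genes and the lower side 0.351%, shares fixed by the rule itself. The mean was above 0 in all 3 treatments for 24.5% of detected genes and below 0 for 23.9%.

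**Figure D1:**
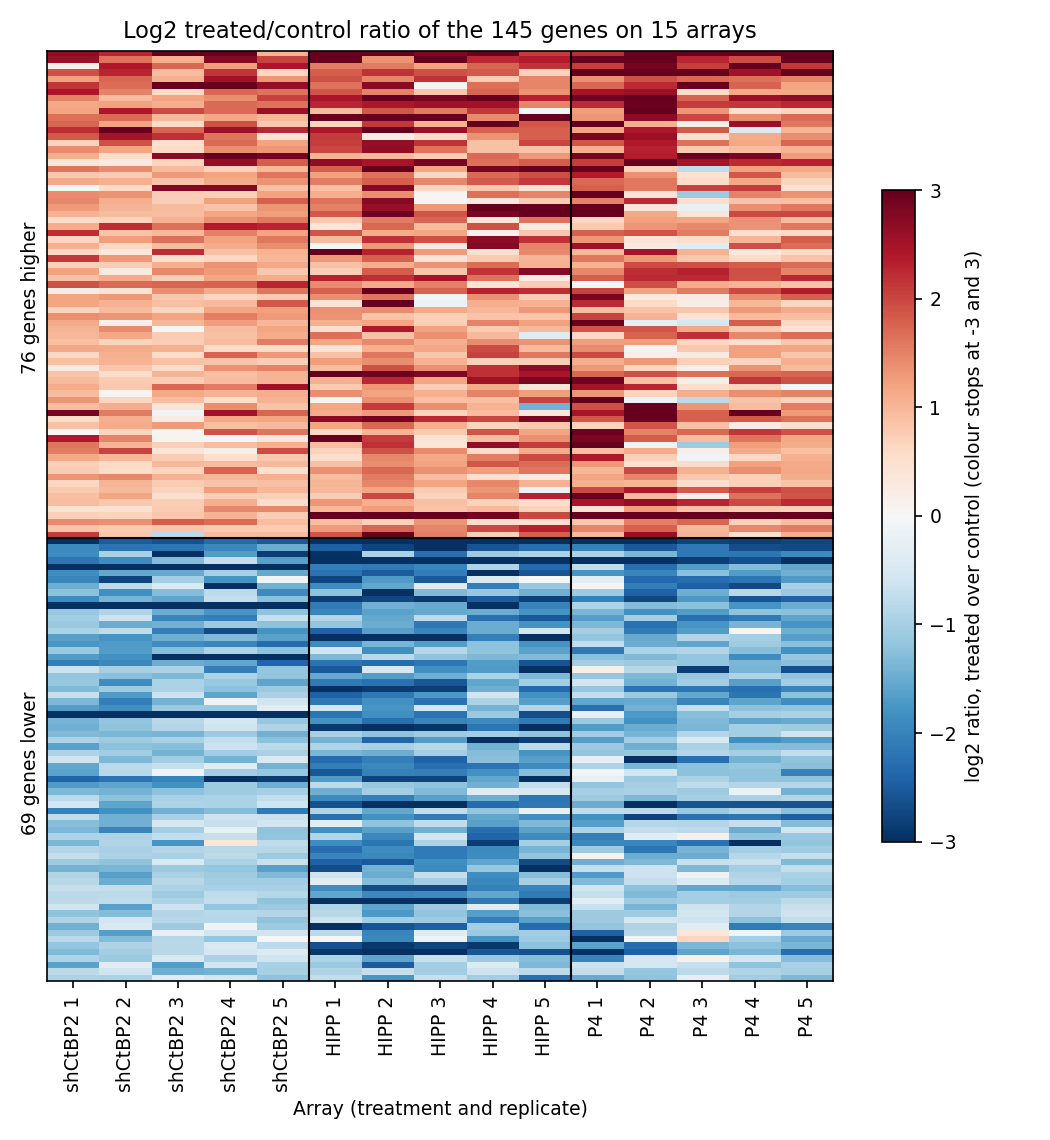
Log2 ratio of treated over control signal of the 145 members (rows, 76 higher above the line and 69 lower below it) on each of the 15 arrays (columns, 5 per treatment). Red is higher and blue lower than control, with the color held constant beyond -3 and 3, and 114 members keep 1 direction on all 15 arrays.

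The heat map of all members by array shows a common direction with unequal size. In direction, 55 of 76 higher genes and 59 of 69 lower genes were the same on all 15 arrays, and the other 31 members had the opposite sign on 1 or 2 arrays. The medians of the higher genes' means were 1.07, 1.36 and 1.30 in the order shCtBP2, HIPP and P4, and those of the lower genes were -1.12, -1.76 and -1.24, beside 0.00, 0.00 and 0.01 over all detected genes. HIPP gave the mean farthest from 0 for 35 higher and 46 lower genes, whereas the knockdown gave the mean nearest 0 for 44 and 35. This ranking includes dim genes whose ratio is only a bound, and it changed for some genes under another background correction, both described below. The spread between arrays was wider for members than for genes at large, with median SDs of 0.40, 0.57 and 0.64 for the higher genes and 0.34, 0.51 and 0.39 for the lower genes in shCtBP2, HIPP and P4, beside 0.18, 0.31 and 0.29 over all detected genes. The arrays lay on 4 slides, and within each treatment and slide (a single array for P4 on 1 slide) 75 or 76 of the 76 higher genes and all 69 lower genes kept their direction. These counts of direction are a description, since means over the same arrays chose the genes.

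Most members had dim probes. Their median percentile of brightness (the mean log2 signal of both channels among detected genes) was 12 for the higher genes and 23.6 for the lower genes, and 120 of 145 lay below the median gene. For 31 higher genes the control signal, and for 29 lower genes the treated signal, was well above background on fewer than 3 arrays of at least 1 treatment, so that these genes passed the filter through the brighter channel alone. The scanner software replaced the control signal by a surrogate on at least 1 array for 21 higher genes, and the treated signal for 18 lower genes. In 20 higher and 20 lower genes the dim channel was well above background on no array of at least 1 treatment, and there the ratio is only a bound, given beside any measured mean. The bound ("at least N-fold") sets the brighter channel against the dim channel raised to the lowest signal well above background on its array, from the deposited processed signals after quantile normalization between arrays, and is open to dye bias. It holds on that scale only: of 48 bounds above 1, 44 exceeded the fold that the normexp correction described next gave, so a bound here is not a floor under that correction. No member was saturated.

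The size of the ratios changed when background correction and dye normalization were changed together. With normexp correction (offset 50), which pulls dim signals together, and loess in place of the deposited processed signals, 75 of 76 higher and all 69 lower genes kept their sign in all 3 treatments, but only 3 higher and 10 lower genes passed 0.8. The 3 were BEX2, JUND and TMEM154, and the 10 were EDN1, IGFBP4, INHBB, LAMA4, PXDN, SMARCA1, LOC152573, ENST00000358378, THC2279735 and W60781. The medians of the higher genes became 0.30, 0.36 and 0.39 and those of the lower genes -0.43, -0.53 and -0.52. On the higher side the median farthest from 0 was thus that of P4. Among lower genes, LMO3, NEDD9 and STS then had P4 and not HIPP farthest from 0, while SMARCA1 and IGFBP4 kept HIPP. For the 25 higher and 33 lower genes at or above the 25th percentile of brightness, the medians after normexp were 0.66, 1.14 and 1.01, and -0.67, -0.89 and -0.97. For the 51 higher and 36 lower genes below it, they were 0.21, 0.21 and 0.28, and -0.22, -0.23 and -0.30. Which correction is nearer the true ratio of dim genes was not tested. The signs kept are a description, since the same arrays chose the genes.

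**Figure D2:**
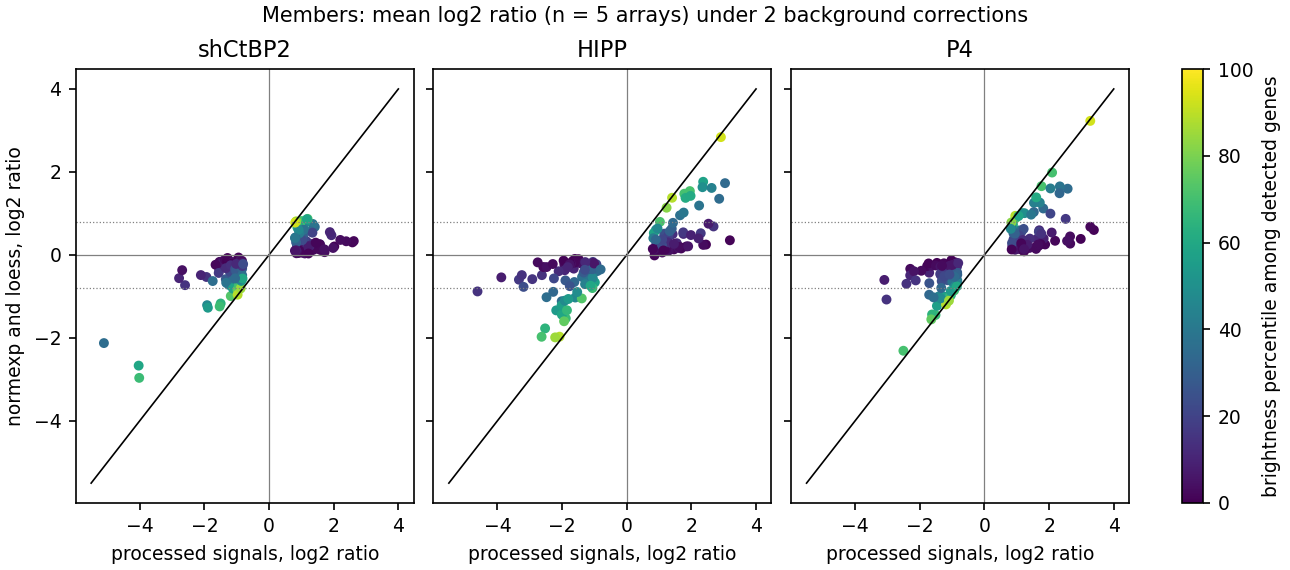
Mean log2 ratio (n = 5 arrays) of each member from the deposited processed signals (horizontal axis) and after normexp correction with loess (vertical axis), 1 panel per treatment. Color is the brightness percentile, the black line marks equal values and the dotted lines mark 0.8 and -0.8, and dim members lie close to 0 on the vertical axis whereas bright members lie near the line.

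On the lower side, INHBB encodes the beta B subunit of activins and inhibins, ligands of the TGF-beta family. Its log2 ratio was -4.00, -4.23, -4.35, -4.19 and -3.30 on the 5 shCtBP2 arrays, -2.07, -2.11, -1.97, -0.93 and -2.33 on the HIPP arrays and -0.76, -2.27, -1.67, -1.30 and -1.56 on the P4 arrays. All 5 knockdown arrays lay below all 10 inhibitor arrays, while HIPP and P4 overlapped. The means were -4.01 ± 0.42, -1.88 ± 0.55 and -1.51 ± 0.55 (SD, n = 5 each), and after normexp they were -2.96, -1.53 and -1.45. A separate feature without a gene name, THC2279735, had its probe 272 bases from the INHBB probe on the same strand (INHBB probe at chr2:120825010-120825069, hg17), and its means were -4.03 ± 0.28, -2.0 ± 0.58 and -1.04 ± 0.54 (SD, n = 5), so both features report a single stretch of the chromosome. INHBA, which encodes the beta A subunit, was no member and had means of 0.47 ± 0.33, 1.89 ± 0.38 and 0.51 ± 0.24 (SD, n = 5).

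TGFB2, a TGF-beta ligand, was lower by a similar amount with every treatment. The ratio ran from -1.62 to -0.60 in shCtBP2 cells (median -1.08), from -1.57 to -0.34 with HIPP (median -1.09) and from -1.39 to -0.62 with P4 (median -0.67), and the 3 groups overlapped. The means were -1.02 ± 0.42, -1.05 ± 0.47 and -0.84 ± 0.32 (SD, n = 5).

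SEMA3A and SEMA3C are secreted class 3 semaphorins that steer axons and vessels through neuropilin and plexin receptors. SEMA3A was at -1.40, -1.18, -0.83, -0.54 and -1.13 in shCtBP2 cells, -1.80, -2.25, -1.98, -1.91 and -2.12 with HIPP and -1.12, -1.81, -1.32, -1.59 and -1.5 with P4. The HIPP arrays lay below all knockdown arrays, and the P4 arrays overlapped both. In SEMA3C the knockdown was the lowest and not, as in SEMA3A, the nearest to 0, with means of -1.53 ± 0.30, -1.06 ± 0.30 and -0.94 ± 0.16 against -1.02 ± 0.34, -2.01 ± 0.18 and -1.47 ± 0.26 for SEMA3A (SD, n = 5). The co-receptors NRP1 and NRP2 were no members, with means of 0.33, 0.50 and 0.52 for NRP1 and 0.10, 0.28 and 0.34 for NRP2.

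GAS6 and its receptor MERTK were both members. GAS6 is the ligand of the TAM receptor tyrosine kinases, which include MERTK and AXL. GAS6 was -0.78, -0.59, -1.47, -1.41 and -0.99 in shCtBP2 cells, -0.89, -0.68, -1.04, -0.62 and -0.80 with HIPP and -0.75, -1.16, -0.82, -0.91 and -1.0 with P4. Its 3 groups overlapped, with means of -1.05 ± 0.39, -0.81 ± 0.17 and -0.93 ± 0.16 (SD, n = 5), just inside the threshold with HIPP. MERTK, named after its values were seen, had means of -1.74 ± 0.36, -0.91 ± 0.50 and -0.96 ± 0.22, and AXL, no member, -0.27 ± 0.24, -1.05 ± 0.26 and -0.75 ± 0.31.

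EDN1 and IGFBP4, also secreted, were named after their values were seen, because they passed the rule after normexp too. EDN1, the precursor of the vasoconstrictor endothelin, had means of -0.97 ± 0.43, -1.94 ± 0.48 and -1.64 ± 1.07 (SD, n = 5). Its P4 arrays ran from -3.06 to -0.26, the widest range of the ligands named here. IGFBP4, a binding protein that holds insulin-like growth factors, had means of -0.88 ± 0.31, -2.21 ± 0.47 and -1.10 ± 0.39.

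**Figure D3:**
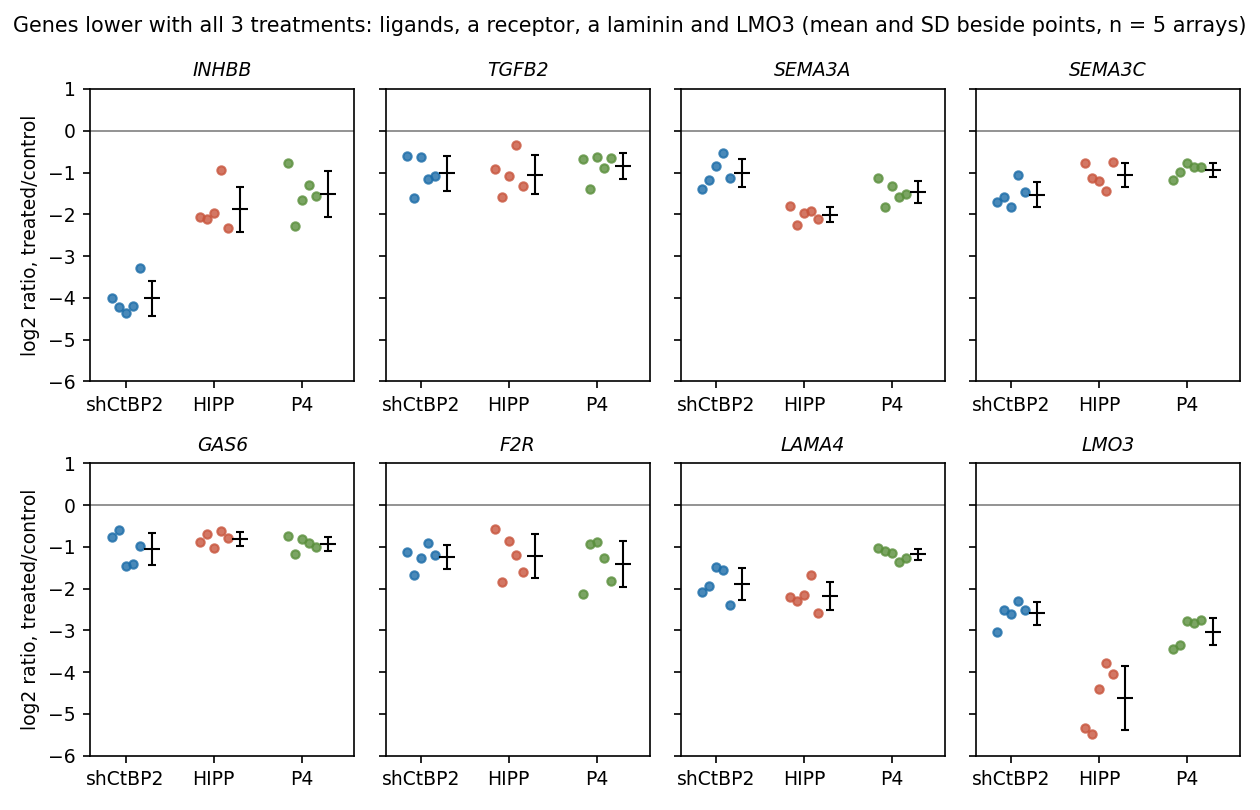
Log2 ratio of treated over control signal for 8 lower genes (points, 5 arrays per treatment, replicates 1 to 5 from left to right) with the mean and SD beside the points. INHBB is lowest in shCtBP2 cells, LMO3 is lowest with HIPP (where its treated channel was at background), and GAS6, F2R and TGFB2 overlap between all 3 treatments.

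F2R encodes the thrombin receptor, a G protein-coupled receptor cut open by its ligand. Its ratio was -1.12, -1.68, -1.28, -0.92 and -1.21 in shCtBP2 cells, -0.57, -1.85, -0.86, -1.20 and -1.60 with HIPP and -2.14, -0.94, -0.88, -1.27 and -1.82 with P4, with overlap of all groups and means of -1.24 ± 0.28, -1.22 ± 0.52 and -1.41 ± 0.55 (SD, n = 5). LAMA4, a laminin alpha chain of basement membranes, was -2.08, -1.93, -1.49, -1.55 and -2.39 in shCtBP2 cells, -2.19, -2.30, -2.16, -1.67 and -2.58 with HIPP and -1.04, -1.09, -1.15, -1.36 and -1.26 with P4. The P4 arrays of LAMA4 were all nearer 0 than any knockdown or HIPP array, with a mean of -1.18 ± 0.13 against -1.89 ± 0.37 and -2.18 ± 0.33. PXDN, a peroxidase that crosslinks collagen IV and was named after its values were seen, was among the most even members, with means of -1.18 ± 0.16, -1.39 ± 0.27 and -1.16 ± 0.15.

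On the lower side, LMO3 encodes a LIM-only coregulator that bridges DNA-bound factors. It was -3.04, -2.51, -2.61, -2.30 and -2.52 in shCtBP2 cells, -5.34, -5.49, -4.40, -3.79 and -4.05 with HIPP and -3.44, -3.35, -2.78, -2.82 and -2.76 with P4. All HIPP arrays were lowest, but on 0 of these 5 arrays did the treated channel rise well above background, so the HIPP value is a bound: on the processed scale LMO3 was at least 8.65-fold lower than in the control. After normexp the LMO3 means were -0.73, -0.88 and -1.07, with P4 and not HIPP the lowest.

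SMARCA1 encodes an ATPase of ISWI chromatin remodeling complexes and was measured well above background throughout. Its ratio was -1.87, -1.54, -1.52, -1.0 and -1.54 in shCtBP2 cells, -2.22, -2.50, -2.07, -3.26 and -2.57 with HIPP and -1.78, -1.95, -1.25, -1.67 and -1.44 with P4. HIPP lay below every knockdown and P4 array, with a mean of -2.52 ± 0.46 against -1.49 ± 0.31 and -1.62 ± 0.28 (SD, n = 5). HOPX, a homeodomain protein that does not bind DNA, split by slide in the knockdown: -1.66 and -1.82 on 1 slide and -3.38, -3.54 and -3.49 on the other, with means of -2.78 ± 0.95, -1.20 ± 0.23 and -1.35 ± 0.29 over the treatments.

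The other lower genes chosen by the size of their weakest mean were dimmer. ANO1 and ANO2, calcium-activated chloride channels, had means between -1.67 and -1.29, with the treated signal of ANO1 well above background on 0 HIPP and 0 P4 arrays and no bound above 1. NEDD9, a scaffold of focal adhesions, was at least 1.96-fold lower with HIPP and at least 2.18-fold lower with P4, with measured means of -2.75 ± 0.15 and -2.29 ± 0.41 beside -1.36 ± 0.44 in shCtBP2 cells. SH3RF3, an SH3-domain ubiquitin ligase, had means of -1.56 ± 0.17 and -1.24 ± 0.32 with the knockdown and P4 and was at least 6.09-fold lower with HIPP on the processed scale (1.51-fold after normexp). VSIG1, an immunoglobulin-family membrane protein, had means of -2.11 ± 0.89, -1.64 ± 0.93 and -1.71 ± 0.52, and GARIN2 (C14orf54 on the array) had -1.93 ± 0.29, -2.62 ± 0.31 and -2.41 ± 0.31. ST6GALNAC5, a sialyltransferase that acts on gangliosides, had -1.34 ± 0.38, -1.90 ± 0.61 and -1.14 ± 0.41.

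W60781 is an expressed sequence tag that the array describes without a gene. The treated channel passed as well above background on 0 shCtBP2 arrays, where the measured mean was -5.11 ± 0.17 and the tag was at least 28.9-fold lower than control on the processed scale (4.36-fold after normexp), and on all 5 arrays of each inhibitor, where its means were -2.01 ± 0.61 and -1.34 ± 0.32 (SD, n = 5). Of the 145 members, 70 had no current gene symbol, 43 of them higher and 27 lower, so a reading by gene function covers 33 of 76 higher and 42 of 69 lower genes.

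Among the higher genes, SLC16A6 encodes a ketone body transporter of the monocarboxylate family. Its ratio was 0.86, 0.55, 1.03, 0.91 and 1.05 in shCtBP2 cells, 3.09, 2.92, 2.79, 2.19 and 2.45 with HIPP and 1.72, 1.91, 1.66, 1.73 and 1.77 with P4. The 3 groups did not overlap, with means of 0.88 ± 0.20, 2.69 ± 0.36 and 1.76 ± 0.09 (SD, n = 5), which after normexp were 0.20, 0.69 and 0.51. SLC16A14, an orphan of the same family, was 1.65, 1.70, 0.98, 1.15 and 0.99 in shCtBP2 cells, 3.83, 3.41, 3.5, 1.43 and 3.04 with HIPP and 1.31, 2.69, 2.02, 1.39 and 1.70 with P4, so that 1 HIPP array (replicate 4) fell within the knockdown range. SLC7A7, a subunit of an exchanger of cationic and neutral amino acids, was well above background in the control channel on 0 of 15 arrays and was at least 1.08-fold higher in shCtBP2 cells, at least 2.74-fold higher under HIPP and at least 2.80-fold higher under P4.

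PTGFR, the receptor of prostaglandin F, was 1.23, 1.74, 1.06, 2.51 and 1.34 in shCtBP2 cells, 1.91, 1.45, 2.18, 0.75 and 1.46 with HIPP and 1.38, 1.91, 1.73, 1.65 and 1.49 with P4. The groups overlapped, with means of 1.58 ± 0.58, 1.55 ± 0.54 and 1.63 ± 0.21 (SD, n = 5), and after normexp the means were 0.26, 0.28 and 0.39. OR2W3, an olfactory receptor, was at least 2.15-fold higher in shCtBP2 cells and had means of 1.5 ± 0.95 with HIPP and 2.19 ± 1.08 with P4.

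Enzymes and a Schlafen protein followed. AKR1C1, an aldo-keto reductase that inactivates progesterone, was 1.0, 1.16, 0.77, 0.89 and 1.12 in shCtBP2 cells, 1.65, 0.88, 1.37, 0.98 and -0.37 with HIPP and 0.62, 1.76, 2.19, 1.43 and 1.67 with P4. A single HIPP array (replicate 5) lay below 0, and near-identical family members such as AKR1C3 (means of 1.07, 0.12 and 0.60) may share probe signal, which was not tested. DUSP13A, a dual-specificity phosphatase, had means of 1.35 ± 0.28, 2.24 ± 0.45 and 2.33 ± 0.34 (SD, n = 5). SLFN5, a Schlafen family protein known as an interferon-induced repressor of cell motility, was 1.49, 0.95, 1.21, 1.39 and 2.04 in shCtBP2 cells, 2.45, 3.5, 2.85, 3.19 and 2.32 with HIPP and 2.89, 2.97, 1.77, 2.56 and 2.68 with P4. All HIPP arrays of SLFN5 lay above all knockdown arrays, and 1 P4 array (replicate 3) lay within the knockdown range.

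**Figure D4:**
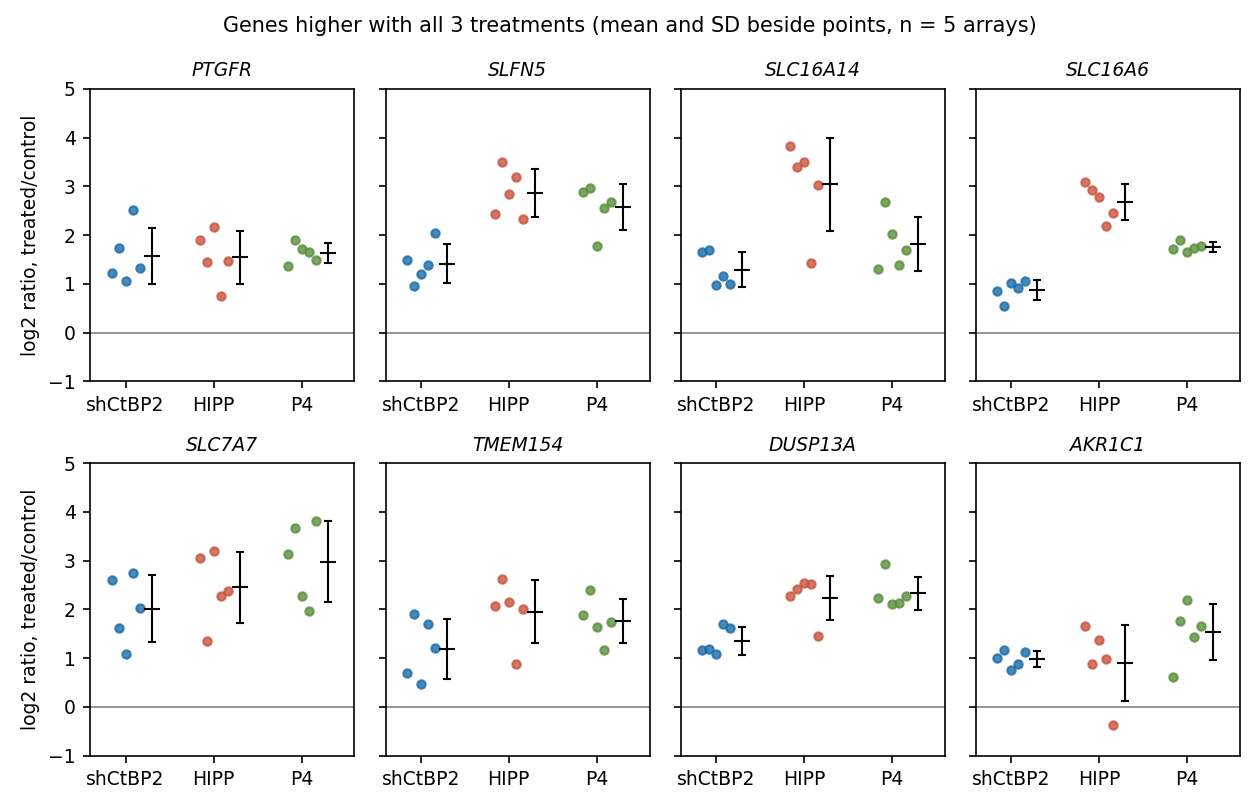
Log2 ratio of treated over control signal for 8 higher genes (points, 5 arrays per treatment, replicates 1 to 5 from left to right) with the mean and SD beside the points. SLC16A6 separates the 3 treatments, PTGFR overlaps between them, and 1 HIPP array of AKR1C1 lies below 0.

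The 3 higher genes that also passed the rule after normexp were brighter than most. TMEM154, a single-pass membrane protein, was 0.70, 1.90, 0.47, 1.69 and 1.20 in shCtBP2 cells, 2.08, 2.63, 2.16, 0.89 and 2.01 with HIPP and 1.88, 2.40, 1.64, 1.17 and 1.74 with P4, with overlap of all groups. BEX2, an X-linked adaptor expressed in brain, had means of 1.01 ± 0.19, 1.78 ± 0.90 and 2.09 ± 0.22 (SD, n = 5). JUND, a subunit of the transcription factor AP-1, had means of 0.84 ± 0.17, 1.40 ± 0.38 and 0.95 ± 0.38. BEX2 and JUND were named after their values were seen.

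Dim genes made up the rest of the higher genes with the largest weakest means. NECAB2, a neuronal calcium-binding protein, was well above background in the control channel on 0 of 15 arrays, and was at least 1.47-fold, 3.78-fold and 3.17-fold higher in shCtBP2, HIPP and P4. TENM1 (a teneurin of neuronal contacts), FBXO39 (an F-box protein) and TRIM49 (a TRIM family protein with near-identical copies in the genome) were at least 1.71-fold, 2.97-fold and 2.52-fold higher in shCtBP2 cells. With HIPP their means were 1.46 ± 0.41, 2.37 ± 0.60 and 1.15 ± 0.36, and with P4 1.59 ± 0.88, 1.22 ± 1.06 and 2.65 ± 0.94 (SD, n = 5). RSPH1, a radial spoke protein of cilia, had means of 1.17 ± 0.35, 1.61 ± 0.77 and 1.23 ± 0.61.

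The brightest member, at percentile 93.2, was THC2363646, which the array describes as an asparagine synthase sequence. Its ratio was 0.72, 0.70, 0.83, 1.02 and 0.77 in shCtBP2 cells, 3.13, 3.25, 3.31, 2.88 and 2.0 with HIPP and 3.17, 3.25, 3.35, 3.22 and 3.38 with P4. Every inhibitor array lay above every knockdown array, and normexp left the means nearly as they were (0.78, 2.84 and 3.23). ASNS itself, the asparagine synthetase gene, was no member because its means were 0.33 ± 0.12, 1.51 ± 0.28 and 1.69 ± 0.06 (SD, n = 5), and whether both features bind the same transcript was not tested.

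Several members were neighbors. Probe positions (hg17) put 20 members in 13 pairs within 100 kb, and 11 of these pairs had 1 direction. SLFN5 lay on the same strand as THC2336549 and BU685299, all within 14065 bases, TMEM154 lay 2631 bases from THC2407555, and SORBS2, an actin-linked adaptor, 3570 bases from AK094603. PXDN lay 596 bases from AA910154 on the opposite strand. AK094603 had means of -1.54 ± 0.56, -3.88 ± 0.45 and -3.09 ± 0.35 beside -1.13 ± 0.15, -2.58 ± 0.72 and -1.95 ± 0.45 for SORBS2 (SD, n = 5), and neither reached well above background in the treated channel of any of the 5 HIPP arrays, where they were at least 4.03-fold and 1.97-fold lower on the processed scale. The same held for AK094603 on the 5 P4 arrays, where it was at least 4.49-fold lower. Such pairs may report 1 transcript, so 145 features are not 145 independent genes. The one exception in direction was ENST00000304389, lower, which lay 84932 and 87623 bases from the higher features THC2407555 and TMEM154.

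Where a gene had several probes, they mostly had 1 direction. Among the 21 members with more than 1 probe, 47 of 48 probes had the sign of the gene in all 3 treatments, and 32 passed 0.8 on their own. The averages of these probes chose the genes, so the counts are a description. HOPX rested on 1 of its 2 probes under the inhibitors, since the other had means of -0.08 with HIPP and -0.29 with P4. A probe of ANO1 had means of -0.30, -0.01 and -0.28, and a probe of AKR1C1 0.74, -0.02 and 0.19.

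The most variable members were set by P4 replicates 1 and 3. THC2301901 was 3.73, -0.15, -0.81, 0.85 and 0.69 on the P4 arrays, C8orf6 3.62, 0.39, -1.09, 1.49 and 1.34, and C8orf15 3.06, -0.16, -1.06, 1.26 and 1.12. In each of the 3, replicate 1 was the highest and replicate 3 the lowest, and the SDs with P4 were 1.74, 1.72 and 1.56 against 0.31, 0.34 and 0.33 in shCtBP2 cells. C8orf6 and C8orf15 lay 13979 bases apart. These are also the P4 arrays that correlated least with each other over all genes.

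Whether the inhibitors moved the members as far as the knockdown was asked with limma, HIPP minus shCtBP2 and P4 minus shCtBP2, all 15 arrays in one fit and 2-sided, with Benjamini-Hochberg adjustment over 21068 genes. The differences come from the same means that chose the genes, each held past 0.8, so the calls among members are not independent of the rule and nothing is read from their share. P4 shared no slide with shCtBP2, and 4 of its 5 arrays were scanned on another day, whereas HIPP and shCtBP2 shared 1 slide. With slide as a fixed block the HIPP difference therefore rests on HIPP replicates 4 and 5 against shCtBP2 replicates 1 and 2. Of the P4 arrays only replicate 5 enters the P4 difference, which is linked to shCtBP2 through the HIPP arrays. A call lost in that fit thus cannot tell a slide effect from the smaller number of arrays. HIPP and the knockdown differed for 48 members (33.1%) at an adjusted p under 0.05, beside 43.7% of all detected genes, and P4 and the knockdown for 29 members (20.0%), beside 23.9%. With slide as a fixed block the members called were 37 and 6, beside 36.6% and 9.67% of all detected genes. Of the 18 higher and 30 lower genes called with HIPP, the inhibitor was the farther from 0 for 15 and 24. With P4, 15 higher and 14 lower genes were called, and the inhibitor was the farther for 14 and 5. Over all detected genes HIPP lay above the knockdown for 20.8% and below it for 22.9%, and P4 above it for 11.8% and below it for 12%. Both contrasts share the shCtBP2 arrays.

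**Figure D5:**
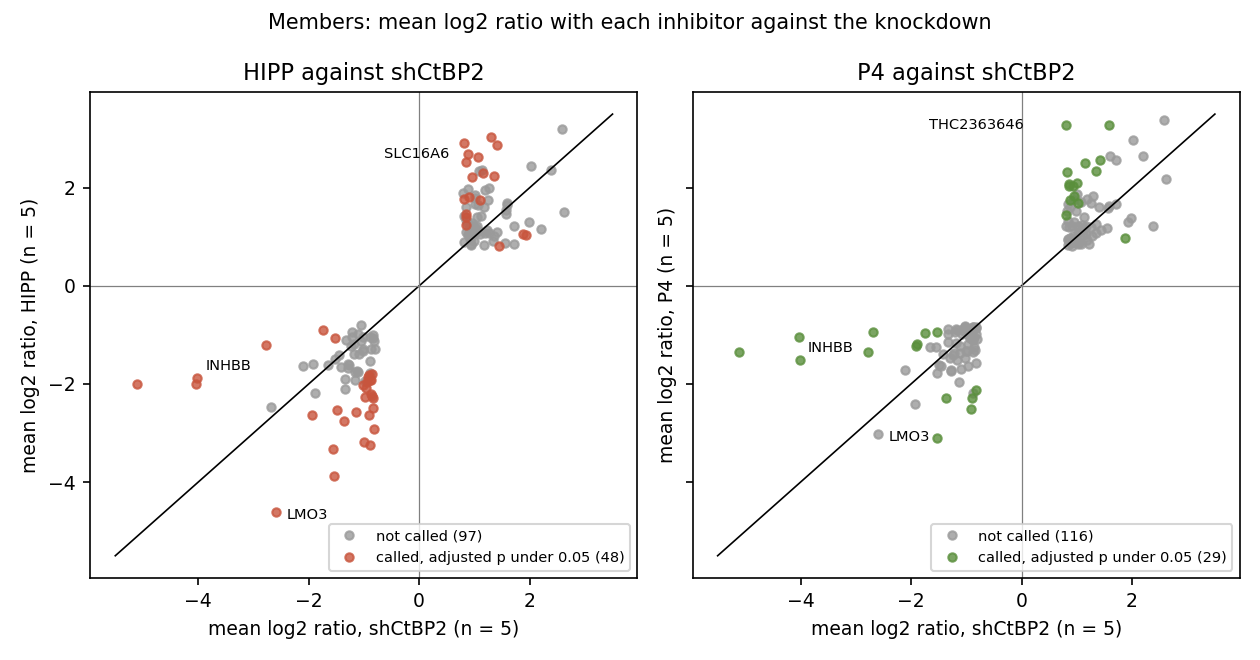
Mean log2 ratio of each member with HIPP (left) or P4 (right) against its mean in shCtBP2 cells (n = 5 arrays each), colored where limma called the difference (48 and 29 of 145 members). Points off the black line of equal values differ in size between treatments, such as INHBB, SLC16A6 and THC2363646, while the HIPP mean of LMO3 is a bound.

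Knockdown exceeded inhibitor for a small set on the lower side. INHBB was less reduced with HIPP by 2.13 (SE 0.30, limma adjusted p = 4.35e-05) and with P4 by 2.50 (SE 0.30, adjusted p = 4.36e-05), with all 5 arrays of each inhibitor above all 5 of the knockdown. Both calls held under every alternative setting and every left-out array, with differences of 1.43 and 1.51 after normexp. THC2279735 beside it differed by 2.03 and 2.99 (limma adjusted p = 4.59e-05 and 6.85e-06), the former with an adjusted p of 0.0723 after normexp. W60781 differed by 3.1 and 3.76 (adjusted p = 3.05e-07 and 2.09e-07), but its knockdown signal was at background, and after normexp the differences were 1.01 and 1.15 (adjusted p = 0.0946 and 0.0794).

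SEMA3C was less reduced by the inhibitors than by the knockdown, by 0.47 with HIPP (SE 0.16, limma adjusted p = 0.0317) and 0.59 with P4 (SE 0.16, adjusted p = 0.018), calls lost after normexp (differences 0.44 and 0.38, adjusted p = 0.117 and 0.207), with slide as a block (0.56 and 0.74, adjusted p = 0.131 and 0.247) and, for HIPP, without shCtBP2 replicate 1, 2 or 3 or HIPP replicate 1 or 5 (highest adjusted p 0.0858). HOPX differed by 1.58 and 1.43 (adjusted p = 0.00167 and 0.00759), but with slide as a block by 0.41 and 0.39 (adjusted p = 0.194 and 0.482). MERTK differed by 0.83 and 0.78 (adjusted p = 0.00758 and 0.0211), and after normexp by 0.24 and 0.26 (adjusted p = 0.137 and 0.143), and its P4 call ended with the slide block (1.05, adjusted p = 0.194) and without shCtBP2 replicate 1 or 5 (highest adjusted p 0.0561). THC2343678, with a knockdown signal at background, differed by 1.74 with P4 (adjusted p = 0.00608), after normexp by 0.14 (adjusted p = 0.436) and with slide as a block by 0.95 (adjusted p = 0.543). LAMA4 was less reduced with P4 by 0.71 (SE 0.18, adjusted p = 0.0123), with a difference of 0.24 after normexp (adjusted p = 0.63) and, with slide as a block, a difference of 0.84 (adjusted p = 0.238), and its difference with HIPP of -0.29 missed the threshold (adjusted p = 0.214).

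On the higher side, THC2363646 was higher with HIPP by 2.10 (SE 0.20, limma adjusted p = 1.24e-06) and with P4 by 2.46 (SE 0.20, adjusted p = 1.58e-06), under every alternative and left-out array. SLC16A6 was higher with HIPP by 1.80 (SE 0.16, adjusted p = 7.58e-07), a call that held under every alternative while the difference after normexp was 0.49 (adjusted p = 0.0245), and with P4 by 0.88 (adjusted p = 0.00124), a call lost after normexp (adjusted p = 0.159) and with slide as a block (0.265). SLC16A14 was higher with HIPP by 1.75 (adjusted p = 0.00184), but with slide as a block by 0.56 (adjusted p = 0.382), and with P4 by 0.53 (adjusted p = 0.332). SLFN5 differed by 1.44 and 1.16 (adjusted p = 5.47e-04 and 0.00671) and DUSP13A by 0.89 and 0.98 (adjusted p = 0.00425 and 0.00516). After normexp the P4 calls of both remained (adjusted p = 0.0355 and 0.0365) and the HIPP calls did not (adjusted p = 0.084 and 0.243), and with slide as a block the P4 calls were lost (differences 1.29 and 0.67, adjusted p = 0.22 and 0.404), as was the HIPP call of DUSP13A (0.80, adjusted p = 0.0863).

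Some lower genes that were farther from 0 with HIPP had a treated signal near background. LMO3 differed by -2.02 with HIPP (limma adjusted p = 6.71e-05) and by -0.43 with P4 (adjusted p = 0.302), and after normexp the HIPP difference was -0.15 (adjusted p = 0.636). STS, the steroid sulfatase, named after its values were seen, differed by -2.10 and -1.30 (adjusted p = 2.48e-05 and 0.00365), and after normexp by -0.32 and -0.35 (adjusted p = 0.101 and 0.0965), and with slide as a block its P4 difference was -0.59 (adjusted p = 0.541). With HIPP the levels of STS and THC2404072 were bounds, at least 5.50-fold and 4.24-fold lower than control on the processed scale. The features THC2404072, AK094603 and BG542103 differed by -2.36, -2.34 and -2.19 with HIPP, and after normexp by -0.19, -0.18 and -0.37 (adjusted p between 0.129 and 0.373).

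Brighter lower genes also differed. SEMA3A was lower with HIPP than with the knockdown by 1.0 (SE 0.17, limma adjusted p = 2.36e-04), and after normexp the difference was -0.52 (adjusted p = 0.0695). Its P4 difference of -0.45 missed the threshold (adjusted p = 0.0617) and passed it with the replicate number as a block (adjusted p = 0.0484). SMARCA1 differed by -1.03 with HIPP (adjusted p = 0.00134), which became -0.60 after normexp (adjusted p = 0.159), and by -0.12 with P4 (adjusted p = 0.71). IGFBP4 differed by -1.34 with HIPP (adjusted p = 3.51e-04; 9.89e-04 after normexp, and with slide as a block a difference of -0.99 with an adjusted p of 0.0582). For PTGFR, F2R, TGFB2, GAS6 and AKR1C1 both differences missed the threshold (adjusted p between 0.238 and 0.949), with SEs of 0.16 to 0.33.

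The promoters of the members were searched for short motifs, in 300 bases around the start (250 before and 50 after) as RefSeq gives it on GRCh38.p14. A promoter was found for 56 of the 75 members with a current symbol, 23 higher and 33 lower. Members were searched in the first listed promoter of the symbol, whereas the shares cover all 35116 listed promoters, which can include several per gene. TGATGNAA, the amino acid response element bound by ATF4 complexes (either strand), was in the promoters of 3 higher genes (CT83, IL21R and TMEM154) and 1 lower gene (SEMA3C), beside 3.62% of 35116 promoters. CACCTG, an E-box bound by ZEB factors that recruit CtBP proteins, was in 6 higher and 5 lower promoters, beside 20.6%. TGANTCA, the AP-1 site, was in 1 of each (TRIM49 and SCEL), beside 7.71%, CACGTG in 3 and 3, beside 7.26%, and GGGCGG, a Sp and KLF site, in 9 and 16, beside 45.0%. A match is a run of letters and was not tested for binding.

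The stretches from 150 bases to 1 base before the start are shown for the 4 genes with TGATGNAA and for the 2 genes with CACCTG (BEX2 and EDN1) that passed the rule after normexp. They are written 5′ to 3′ on the gene's strand, with the motif or its reverse complement in capitals. The positions are TMEM154 at chr4:152679998-152680147 (minus strand), IL21R at chr16:27427121-27427270 (plus), CT83 at chrX:116462977-116463126 (minus), SEMA3C at chr7:80922390-80922539 (minus), BEX2 at chrX:103310991-103311140 (minus) and EDN1 at chr6:12287869-12288018 (plus).
TMEM154: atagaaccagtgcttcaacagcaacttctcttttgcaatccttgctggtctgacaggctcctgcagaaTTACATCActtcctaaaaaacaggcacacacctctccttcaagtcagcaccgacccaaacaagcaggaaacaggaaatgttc
IL21R: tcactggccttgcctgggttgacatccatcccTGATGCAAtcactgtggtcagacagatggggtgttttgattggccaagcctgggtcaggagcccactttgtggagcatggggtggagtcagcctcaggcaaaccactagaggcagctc
CT83: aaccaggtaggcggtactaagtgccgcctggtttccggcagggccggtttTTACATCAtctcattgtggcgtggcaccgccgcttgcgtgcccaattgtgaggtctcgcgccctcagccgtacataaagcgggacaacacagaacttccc
SEMA3C: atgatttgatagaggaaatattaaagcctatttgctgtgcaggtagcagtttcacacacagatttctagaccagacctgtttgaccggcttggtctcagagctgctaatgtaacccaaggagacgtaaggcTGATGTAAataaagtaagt
BEX2: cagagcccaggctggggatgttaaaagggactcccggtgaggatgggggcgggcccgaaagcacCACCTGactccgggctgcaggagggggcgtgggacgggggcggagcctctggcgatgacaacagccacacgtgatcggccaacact
EDN1: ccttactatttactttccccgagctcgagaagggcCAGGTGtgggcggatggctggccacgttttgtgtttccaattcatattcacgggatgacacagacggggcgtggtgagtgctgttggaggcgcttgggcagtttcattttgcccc

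The genes that hold TGATGNAA did not share a size of ratio. CT83, a cancer/testis antigen, had means of 0.88 ± 0.11, 1.03 ± 0.31 and 0.97 ± 0.26 (SD, n = 5), and IL21R, a cytokine receptor, 1.15 ± 1.03, 2.29 ± 0.52 and 2.51 ± 0.54, both named after their values were seen. IL21R was 0.36, 0.28, 0.67, 2.63 and 1.81 in shCtBP2 cells, so its knockdown mean rests on replicates 4 and 5. SEMA3C was lower with all 3 treatments, as given above.

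Of 24 detected YAP and TGF-beta genes, INHBB and TGFB2 were members (ANKRD1 and FST met the rule and are left out by name), and 0 genes were at least 0.8 and 5 at most -0.8 in shCtBP2 cells, 5 and 10 under HIPP and 2 and 6 under P4, with list medians of -0.37, -0.53 and -0.10. Over all detected genes 1.42%, 12.7% and 5.08% were at most -0.8 and 1.89%, 10.9% and 4.38% at least 0.8, with medians of 0.00, 0.00 and 0.01. Of 17 axon guidance genes, SEMA3A and SEMA3C were members, and 0 were past 0.8 upward and 4 downward in shCtBP2 cells, 1 and 3 under HIPP and 1 and 2 under P4. Of 33 matrix genes LAMA4 was the member, of 33 transporters SLC16A6 and SLC7A7, of 31 oxidoreductases AKR1C1, of 23 glycan enzymes ST6GALNAC5, and of 50 receptor and G protein genes PTGFR and F2R (EDG2 met the rule and is left out by name). Over all detected genes, with those left out by name counted, the rule took 0.375% on the higher and 0.351% on the lower side.

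No gene of the other lists was a member. Of 36 detected ATF4 targets, genes of amino acid supply under the integrated stress response, 3 met the rule and are left out by name. Of the 36, 3 were at least 0.8 in shCtBP2 cells, 25 under HIPP and 30 under P4, with medians of 0.26, 1.31 and 1.38, so most ATF4 targets missed the rule in shCtBP2 cells. The cell cycle, cholesterol and fatty acid, interferon, cytokine, protocadherin, glucose and CtBP complex lists held 0 members, with FBP1 of the glucose list left out by name. The lists are not complete. PCDHGA2, a protocadherin that its list lacks, was a higher member with means of 0.96, 1.29 and 0.90, and the interferon-induced SLFN5 is not on the interferon list.

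The threshold cut a continuous range. The members nearest to it were THC2281107, ENST00000244321 and MYO16 on the higher side, with weakest means of 0.80, 0.80 and 0.81, and THC2317871, GAS6 and FLJ22675 on the lower side, with -0.80, -0.81 and -0.81. Just outside were ICAM1, A_32_P176200 and THC2394812 with 0.80 each (all under 0.8 before rounding), and AK026784, AIF1L and AK027610 with -0.79, -0.78 and -0.78. With 1 array left out at a time, 68 to 92 higher and 65 to 72 lower genes met the rule, and 37 higher and 43 lower members met it every time.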

How the data were processed

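RNA of 5 biological replicates per treatment was hybridized by the authors to Agilent 4x44K two-color arrays (probe positions on hg17) and read with Feature Extraction 9.5.3.1. The deposited scanner files, written with decimal commas, give per spot the processed red and green intensity, background-subtracted and dye-normalized by the authors' software, and a log10 ratio; the deposited series value table was used as an alternative. From the deposited intensity values log2(red/green) was computed here, outlier-flagged and control spots were left out, and probes of a gene name were averaged. A gene was tested when either channel was well above background on at least 3 arrays of each treatment.

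Treatments were compared with limma 3.58.1 (lmFit and eBayes, R 4.3.3) on all 15 arrays, with Benjamini-Hochberg adjustment, and tables were made with Python 3.11.15, numpy 2.4.6 and pandas 2.3.3. The fit was tested on simulated data. Same-numbered shCtBP2 and P4 arrays deviated together from their group means (5 of 5 pairs, correlations 0.137 to 0.41), a pairing seen in the data and not stated in the labels, and the fit with the replicate number as a block is an alternative. The number of arrays limits precision. Each limma p-value sets a difference against the spread between arrays within treatments, moderated over genes. Slide and scan day are not separated from treatment in the main fit. The members and gene lists were chosen with earlier results of these data known. Genes named are the 12 per direction with a current symbol and the strongest weakest mean, members of the gene lists, the 3 nearest each side of a threshold, the 5 largest called differences per contrast, the 3 most variable, and 10 chosen after their values were seen. Alternatives were other background corrections, filters, probe rules, thresholds, blocks and left-out arrays. Promoters are from RefSeq, GRCh38.p14.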

Additional observations from a re-analysis of the deposited data

Results flagged for a closer look

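Within a treatment, the gap between the farthest array and its nearest neighbor, divided by the range of the 5 arrays, passed Dixon's critical value in 9 of 171 groups (the 56 named members and CTBP2 in each treatment), where chance gives about 1 in 20. On the higher side, DUSP13A was 1.46 on HIPP replicate 5 against 2.27 to 2.53 on the others (gap over range 0.758) and 2.93 on P4 replicate 2 against 2.11 to 2.27 (0.80). RSPH1 was 0.57 on shCtBP2 replicate 3 against 1.19 to 1.43 (0.722) and 2.30 on P4 replicate 2 against 0.79 to 1.06 (0.819), and THC2281107 was 2.56 on P4 replicate 2 against 0.50 to 1.08 (0.722). On the lower side, INHBB was -0.93 on HIPP replicate 4 against -2.33 to -1.97 (0.740), and HOPX was -0.80 on HIPP replicate 2 against -1.35 to -1.20 (0.719) and -1.86 on P4 replicate 4 against -1.33 to -1.14 (0.726). THC2343678 was -0.23 on P4 replicate 1 against -1.21 to -0.96 (0.742).

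The limma fit called a difference from the knockdown (adjusted p under 0.05) for 48 members with HIPP and 29 with P4. These are 33.1% and 20.0% of the members, below the 43.7% and 23.9% of all detected genes. The calls come from the means that the rule used, so nothing is read from their share.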

How the results depend on the processing

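The number of genes that met the rule depended on the processing. The rule chose members by direction on these same arrays, so a kept direction is no independent support. The rule gave 76 higher and 69 lower genes, and 3 and 10 with normexp (offset 50) and loess, 18 and 11 with uncorrected mean signals, 157 and 149 without a filter on signal, 45 and 40 with both channels required, 224 and 168 at a threshold of 0.6, and 36 and 30 at 1. With normexp at offset 0, chosen after seeing the data, it gave 10 and 15. Leaving out 1 array gave 68 to 92 and 65 to 72. Members called were 48 for HIPP and 29 for P4 against the knockdown, beside 43.7% and 23.9% of all genes tested. With normexp (offset 50) 11 and 13 were called, beside 30.4% and 19.2%. Uncorrected mean signals gave 28 and 10, beside 23.7% and 4.6%, and normexp at offset 0 gave 13 and 13, beside 28.5% and 16.7%. With both channels required, 31 and 20 of the 85 members left were called, beside 45.2% and 24.7%. With slide as a fixed block P4 called 6 members and 2037 genes in place of 5031, in a fit where only replicate 5 of the P4 arrays enters the difference. Over all genes HIPP called 9216, and 4988 with uncorrected mean signals and 5996 with normexp at offset 0, and P4 called 969 with uncorrected mean signals. Leaving out 1 array gave 41 to 53 members and 7755 to 9671 genes for HIPP, and 24 to 31 and 3457 to 5925 for P4.

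With uncorrected mean signals 71 of 76 higher and all 69 lower members kept 1 sign in all 3 treatments, and 5 of the 48 HIPP differences turned. Among the genes named, signs turned for THC2281107 in shCtBP2 cells (-0.041), for the HIPP difference of NEDD9 (0.0108) and of GARIN2 (0.0483) with uncorrected mean signals, for GARIN2 also with normexp (0.0449 at offset 50, 0.0172 at offset 0), and for the P4 difference of BEX2 with slide as a block (-0.12). The cause was not tested. The replicate numbers met the criterion for pairing for shCtBP2 and P4 and not for HIPP with either (3 of 5 same-numbered pairs with shCtBP2 and 4 of 5 with P4 correlated above 0.1, and 8 of 15 arrays correlated best with their own number). The fit with a replicate block called 54 members and 10394 genes for HIPP and 32 and 6314 for P4. Among the genes named, it ended both calls of IL21R (adjusted p = 0.0677 and 0.0512) and added HIPP calls of EDN1 and TMEM154 (0.0422 and 0.0415) and P4 calls of FBXO39 and SEMA3A (0.0206 and 0.0484), and it changed no other call of these genes.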
